A study of Mus musculus with 4 samples.

Results

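A set of 10 genes of the immediate early response and of the AP-1 transcription factor were followed, namely Fos, Fosb, Fosl1, Fosl2, Jun, Junb, Jund, Egr1, Atf3 and Ier2. They were taken by symbol from 4 RNA-seq count tables of mouse lung tumours, each listing 24391 genes. All 10 were present, and all 10 were among the 16001 genes that passed the filter on low counts. Both groups of mice carried K-Ras LSL-G12D, a mutant allele held silent by a lox-flanked stop until Cre recombines it. In the group named K-Ras Mll4-/-, both copies of Mll4, a histone H3 lysine methyltransferase gene now named Kmt2d, were in addition floxed. Each group held 2 samples, numbered as replicates. Every tumour was digested with collagenase and DNase for 45 min and with trypsin for 10 min, red cells were lysed, and cells with the leukocyte antigen CD45 were removed on magnetic beads before RNA extraction. The source of Cre, the strain, sex and age of the mice, whether animals were pooled, and whether replicates came from separate mice are not given in the sources used here, so p-values measure the spread between these samples only.

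AP-1 is a pair of basic leucine zipper proteins, one from the Jun family (Jun, Junb, Jund) and usually one from the Fos family (Fos, Fosb, Fosl1, Fosl2) or the ATF family (Atf3), which binds DNA as a dimer. Fos, Fosb, Jun, Junb, Egr1, Atf3 and Ier2 are transcribed within minutes of growth factor signalling, stress or tissue injury without new protein synthesis. Their short-lived transcripts are also known to accumulate while tissue is digested to single cells. The 8 members other than Fosl1 and Fosl2 are called the early genes below. They include Jund, the constitutively expressed member of the Jun family. Fosl1 and Fosl2 encode Fra-1 and Fra-2, Fos relatives that lack the strong activation domain of Fos and follow sustained ERK signalling, and Fra-1 is known from K-Ras-driven lung tumours.

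Promoter sequences of the early genes are shown because these genes shared their highest sample, with Fosl2 for contrast because its level differed little between samples. Promoters of 7 of the 10 genes were used, matched by symbol in RefSeq (GRCm38.p6, a later build than the mm9 named in the submitters' processing notes). Those of Fosl1 and Ier2 were not in the promoter set, and that of Egr1 was left out of the search. The lines give the 250 bases before the RefSeq transcription start, 5′ to 3′ on the strand of the gene. Capitals mark TGACG or its reverse complement CGTCA, the core of the cAMP response element bound by CREB and ATF proteins, and in Jun the sequence TGACATCA, a variant AP-1 element.
Fos (chr12:85473640-85473889, plus strand): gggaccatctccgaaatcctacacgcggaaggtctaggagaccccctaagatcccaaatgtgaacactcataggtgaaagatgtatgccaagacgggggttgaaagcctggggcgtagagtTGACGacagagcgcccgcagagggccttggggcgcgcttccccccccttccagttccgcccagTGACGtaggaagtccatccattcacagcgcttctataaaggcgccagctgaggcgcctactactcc
Fosb (chr7:19310046-19310295, minus strand): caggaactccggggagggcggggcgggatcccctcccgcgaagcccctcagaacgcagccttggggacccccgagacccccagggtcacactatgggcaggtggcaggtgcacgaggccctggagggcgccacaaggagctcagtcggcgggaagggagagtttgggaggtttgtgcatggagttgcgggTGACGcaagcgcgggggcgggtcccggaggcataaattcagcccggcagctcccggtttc
Junb (chr8:84978749-84978998, minus strand): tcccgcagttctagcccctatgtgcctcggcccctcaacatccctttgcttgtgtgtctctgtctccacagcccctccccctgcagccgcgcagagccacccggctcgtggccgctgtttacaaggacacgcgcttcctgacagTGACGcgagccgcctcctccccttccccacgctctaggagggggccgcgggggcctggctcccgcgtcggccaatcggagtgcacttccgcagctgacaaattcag
Atf3 (chr1:191183334-191183583, minus strand): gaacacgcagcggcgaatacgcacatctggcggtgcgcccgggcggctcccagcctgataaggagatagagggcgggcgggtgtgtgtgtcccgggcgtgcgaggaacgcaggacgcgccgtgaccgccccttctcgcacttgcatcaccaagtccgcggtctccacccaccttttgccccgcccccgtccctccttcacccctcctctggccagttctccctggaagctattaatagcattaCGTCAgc
Jun (chr4:95052223-95052472, minus strand): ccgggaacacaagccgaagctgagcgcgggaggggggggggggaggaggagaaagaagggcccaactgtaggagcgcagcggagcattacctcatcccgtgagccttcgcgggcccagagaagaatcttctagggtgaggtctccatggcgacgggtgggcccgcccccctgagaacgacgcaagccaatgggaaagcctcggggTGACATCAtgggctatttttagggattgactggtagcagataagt
Fosl2 (chr5:32136222-32136471, plus strand): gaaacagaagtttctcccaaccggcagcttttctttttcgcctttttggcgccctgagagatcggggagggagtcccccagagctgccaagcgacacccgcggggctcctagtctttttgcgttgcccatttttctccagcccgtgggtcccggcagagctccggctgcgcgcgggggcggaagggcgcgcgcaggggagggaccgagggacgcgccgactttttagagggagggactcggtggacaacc
TGACG, searched on both strands, occurred in 4 of the 6 early gene promoters examined (Fos, Fosb, Junb and Atf3, not Jun or Jund). It was found in 17.85% of 32536 distinct promoters of the same length. Fos carried it at 2 positions, beginning 129 and 66 bases before the start, Fosb at 60, Junb at 106 and Atf3 at 7. TGACATCA, searched on both strands, occurred in Jun alone among the 7, 45 bases before the start, and in 2.84% of all promoters. TATAAA on the gene strand was found in Fos, 33 bases before the start, and in 7.55% of all promoters. The palindromic TGACGTCA, which contains TGACG, and the AP-1 consensus TGACTCA, on both strands, were not found in these windows (1.56% and 4.45% of all promoters). The Fosl2 window held neither TGACG nor TGACATCA. GGGCGG, on both strands, was found in Fosl2 as well as in Fos, Fosb, Jun and Atf3, and in 32.97% of all promoters. The CArG box (CC, 6 bases of A or T, then GG) was found in none of the 7 windows, and in 1.48% of all promoters. The Jund window, which is not printed, held none of the sequences searched. These are matches of letters and not measured binding.

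The 4 libraries held 26683033 to 36677987 reads assigned to genes. Kmt2d, the targeted gene, was at 395 and 526 CPM in the K-Ras samples and at 367 and 317 CPM in the K-Ras Mll4-/- samples (CPM, a count rescaled by TMM to the library's size), with an edgeR quasi-likelihood adjusted p of 0.302. A count over the whole gene cannot show which exons were lost, so the deletion is taken from the labels. Alveolar type 2 markers were high in all samples, with Sftpc, a surfactant protein gene, at 5748 to 10747 CPM. The sum of 10 such markers was highest in K-Ras replicate 2, at 30743.5 CPM against 18774 to 26468.7 CPM in the other samples. K-Ras replicate 2 stood apart by airway transcripts. Its 8 ciliated cell markers summed to 805 CPM against 82.2 to 143 CPM in the other samples, with Foxj1 at 222 against 12.8 to 27.8 CPM, and its 6 club cell markers summed to 4801 CPM against 748 to 1177 CPM. K-Ras replicate 1 had the highest macrophage sum (6616 CPM against 598 to 3842) and fibroblast sum (2580 CPM against 902 to 1234). Results are therefore also given without each K-Ras sample.

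Fos, Fosb, Jun, Junb, Atf3 and Ier2 were lower in both K-Ras Mll4-/- samples than in both K-Ras samples, while the groups overlapped for Jund, Egr1, Fosl1 and Fosl2, and no difference was called by the main test. The group means of all 8 early genes were lower in K-Ras Mll4-/- tumours, with log2 fold changes below 0, where 51.2% of all tested genes were below 0. The log2 fold changes of the 8, K-Ras Mll4-/- minus K-Ras, ran from -1.28 for Atf3 to -0.26 for Jund, with a median of -0.70 against -0.01 over all tested genes; the sign of Jund turned to 0.10 with offsets for GC content and transcript length, and the signs of Jund and Egr1 turned without K-Ras replicate 2. The edgeR quasi-likelihood test, with an adjusted p under 0.05 as its limit, called 0 of the 10 members and 0.0375% of all tested genes. At an unadjusted p under 0.05, 4 of the 10 were lower (Fos, Fosb, Junb and Atf3), where 10.4% of all tested genes were lower, and 0 were higher, where 11.4% of all tested genes were. For 6 of the 10, both K-Ras Mll4-/- samples lay below both K-Ras samples, where 28.5% of all tested genes did, and for 0 of the 10 they lay above (29.9%). DESeq2 called 4 members, all lower (Fos, Fosb, Junb and Atf3; 5.18% of all genes it tested were called lower and 5.23% higher), the edgeR likelihood ratio test called 3 (Fosb, Junb and Atf3; 9.39% of all genes called, 4.54% lower and 4.85% higher) and limma-voom called 0. A fit that blocked on the replicate number called 0 members, where 1.36% of all tested genes were called, 0.112% lower and 1.24% higher. With 2 samples a group, the smallest two-sided p that an exact permutation test allows is 0.333. In cells from digested tumours, less transcript per cell and fewer cells carrying it cannot be told apart. Transcript levels before digestion were not measured.

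**Figure D1:**
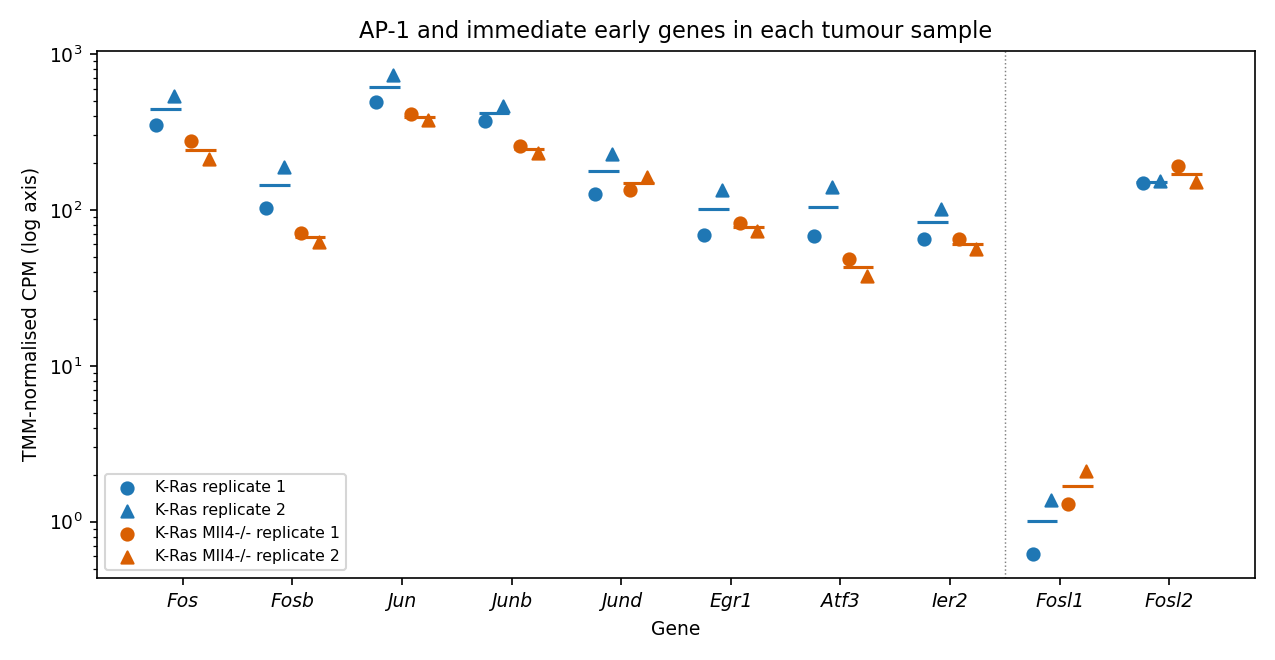
TMM-normalised CPM (log axis) of each of the 10 genes in each sample; points are samples, coloured by group and shaped by replicate, and lines are group means. K-Ras replicate 2 is the highest point for each of the 8 genes left of the dotted line, while Fosl2 sits between 148 and 191 CPM in all samples and Fosl1 near 1 CPM.

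Fos, the founding member of its family, was at 353 and 537 CPM in K-Ras replicates 1 and 2 and at 275 and 211 CPM in K-Ras Mll4-/- replicates 1 and 2. The groups did not overlap, and the gap between the K-Ras samples was larger than that between the groups' nearest samples. The means were 445 ± 131 and 243 ± 45.5 CPM (SD, n = 2 each). The log2 fold change stood at -0.87, with an SE of 0.28 and an edgeR adjusted p of 0.199. Fosb, its close relative, was at 103 and 187 CPM in K-Ras and at 71.5 and 62.3 CPM in K-Ras Mll4-/- tumours. Again the groups were apart, with K-Ras replicate 2 highest. Its means were 145 ± 59.5 and 66.9 ± 6.52 CPM, and its log2 fold change was -1.12 (SE 0.32, edgeR adjusted p = 0.183).

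Junb, a Jun family member that often opposes Jun, was at 369 and 461 CPM in K-Ras and at 257 and 232 CPM in K-Ras Mll4-/- tumours. It had the smallest relative gap between the K-Ras samples of the 8 early genes and the smallest p-value of the 10 members. Its means were 415 ± 65.3 and 244 ± 17.6 CPM (SD, n = 2 each), and the log2 fold change was -0.77 (SE 0.18, edgeR adjusted p = 0.165). Jun, the partner that JNK phosphorylates, was at 492 and 736 CPM in K-Ras and at 413 and 379.6 CPM in K-Ras Mll4-/- tumours. The groups did not overlap, although the K-Ras samples were farther from each other than the nearest samples of the groups, and the log2 fold change was -0.63 (SE 0.25, edgeR adjusted p = 0.241). Jund, the constitutively expressed member of the family, was at 127 and 229 CPM in K-Ras and at 134 and 163 CPM in K-Ras Mll4-/- tumours. Here both K-Ras Mll4-/- samples lay between the K-Ras samples, and the log2 fold change was -0.26 (SE 0.32, edgeR adjusted p = 0.668).

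Atf3, a stress-induced ATF family partner of Jun, differed most of the 10 on the log2 scale. It was at 68.3 and 141 CPM in K-Ras and at 48.7 and 37.8 CPM in K-Ras Mll4-/- tumours. The groups were apart, although K-Ras replicate 2 was 2.07-fold above K-Ras replicate 1. The means were 105 ± 51.5 and 43.2 ± 7.74 CPM (SD, n = 2 each). The log2 fold change stood at -1.28, with an SE of 0.39 and an edgeR adjusted p of 0.192. Egr1, a zinc finger factor induced through ERK and serum response factor, was at 68.7 and 135 CPM in K-Ras and at 82.8 and 73.1 CPM in K-Ras Mll4-/- tumours. The groups overlapped, since K-Ras replicate 1 was the lowest of the 4 samples, and the log2 fold change was -0.38 (SE 0.35, edgeR adjusted p = 0.549). Ier2, an early response gene, was at 65.4 and 102 CPM in K-Ras and at 64.6 and 56.0 CPM in K-Ras Mll4-/- tumours. K-Ras replicate 1 and K-Ras Mll4-/- replicate 1 were almost level, and the log2 fold change was -0.47 (SE 0.25, edgeR adjusted p = 0.334).

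Fosl1, which encodes Fra-1, was the least abundant of the 10 in all samples. It had 19 and 50 reads in K-Ras and 34 and 68 reads in K-Ras Mll4-/- tumours, or 0.621 and 1.38 CPM against 1.29 and 2.11 CPM. The exact Poisson 95% intervals, which cover counting error only, ran from 0.374 to 0.970 CPM for the lowest sample and from 1.64 to 2.67 CPM for the highest. The groups overlapped, and the log2 fold change was 0.76 (SE 0.56, edgeR adjusted p = 0.466). Fosl2, which encodes Fra-2, was at 148 and 152 CPM in K-Ras and at 191 and 151 CPM in K-Ras Mll4-/- tumours. It was the steadiest of the 10 across K-Ras samples, with a ratio of 1.03 between replicates 2 and 1 where the other genes had ratios from 1.25 to 2.23. Its log2 fold change was 0.19 (SE 0.17, edgeR adjusted p = 0.542). Both estimates moved with single samples: Fosl1 was at 1.44 without K-Ras replicate 2 and 0.31 without K-Ras replicate 1, and Fosl2 was at 0.01 without K-Ras Mll4-/- replicate 1.

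The early genes and the Fra genes were then compared within each sample, which removes the scaling between libraries. On the log2 CPM scale, Fosl2 minus the mean of the 8 early genes was -0.02 and -0.71 in K-Ras and 0.57 and 0.40 in K-Ras Mll4-/- tumours. The groups did not overlap. Fosl1 minus the same mean was -7.88 and -7.48 in K-Ras and -6.61 and -5.75 in K-Ras Mll4-/- tumours, again without overlap. Of single tested genes, 29.9% were higher in both K-Ras Mll4-/- samples without overlap. The levels of Fosl1 and Fosl2 themselves overlapped between the groups, so both differences also carry the lower mean of the early genes. From the fitted fold changes, the difference between groups was 1.48 for Fosl1 and 0.91 for Fosl2, and without K-Ras replicate 2 it was 1.76 and 0.51. These differences carry no p-value, since the members were chosen with earlier results of these data known. Together the 8 early genes took 1646 and 2529 CPM in K-Ras and 1347 and 1215 CPM in K-Ras Mll4-/- tumours.

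Levels of different genes were compared per kilobase of the longest protein-coding transcript in GENCODE M21. In K-Ras tumours the order of mean CPM per kb was Junb (229.6 ± 36.1), Fos (211 ± 61.9), Jun (193 ± 54.3), Jund (107 ± 43.3), Ier2 (55.0 ± 17.0), Atf3 (52.8 ± 26.0), Fosb (38.4 ± 15.7), Fosl2 (23.0 ± 0.459), Egr1 (22.7 ± 10.4) and Fosl1 (0.538 ± 0.289; SD, n = 2). Among neighbours in that order, the ranges of Junb and Fos, of Fos and Jun, of Ier2 and Atf3, of Atf3 and Fosb, and of Fosl2 and Egr1 overlapped. In K-Ras Mll4-/- tumours Junb again led at 135 ± 9.73 CPM per kb, Jun and Fos followed at 124 ± 7.42 and 115 ± 21.6, and Fosl2, at 26.1 ± 4.37, stood above Atf3 (21.8 ± 3.90) and Fosb (17.7 ± 1.72). There the ranges of Junb and Jun, of Jun and Fos, of Fosl2 and Atf3, and of Fosb and Egr1 overlapped, so the order of the leading 3 is not resolved. Against all 15863 tested genes with a known length, Fos, Jun, Junb and Jund lay between the 95.997 and 99.2183 percentiles of CPM per kb in every sample. Fosl1 lay between the 7.48 and 19.8 percentiles.

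**Figure D2:**
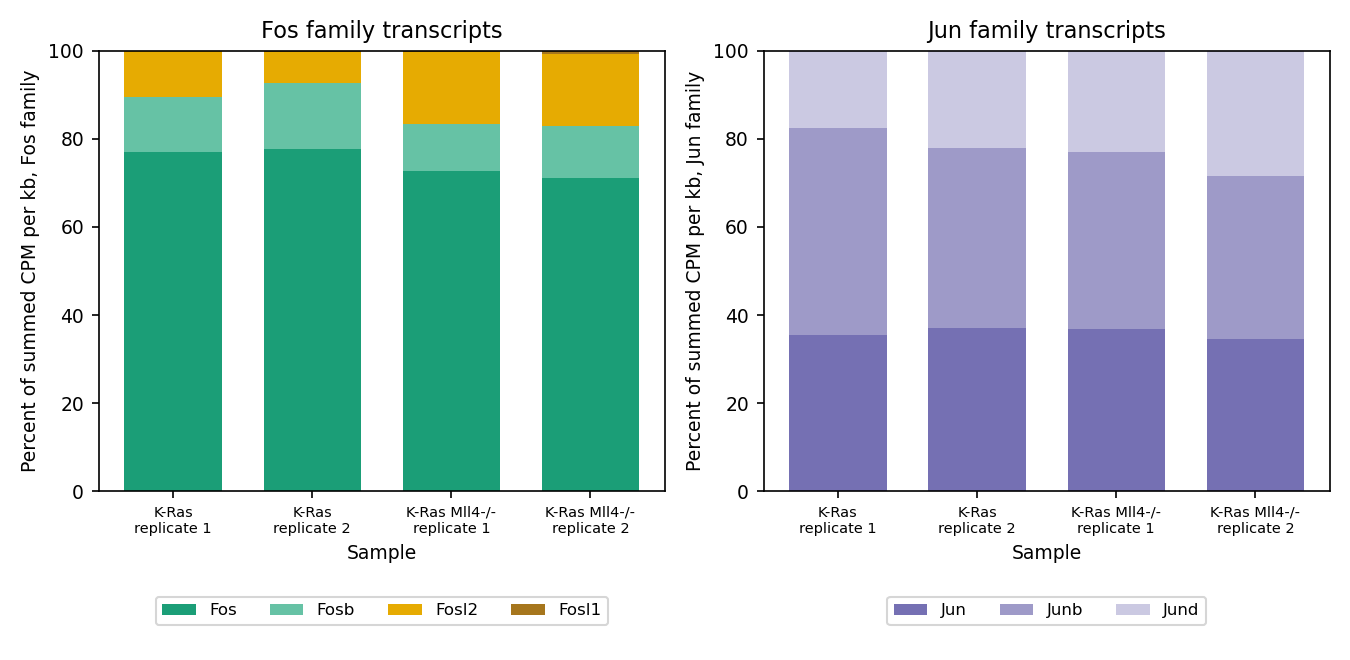
Make-up of the Fos family (left) and Jun family (right) in each sample, as the percent of the summed CPM per kb of the family, with both axes from 0 to 100. The Fosl2 segment is 10.4% and 7.09% of the Fos family in K-Ras and 16.3% and 16.4% in K-Ras Mll4-/- tumours.

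Within the Fos family, counted per kilobase, Fos made up 76.9% and 77.6% in K-Ras and 72.8% and 71.1% in K-Ras Mll4-/- tumours. Fosl2 made up 10.4% and 7.09% in K-Ras and 16.3% and 16.4% in K-Ras Mll4-/- tumours, so its share was higher in both of the latter. Fosl1 stayed under 1% of the family in each sample, at 0.153% and 0.226% against 0.387% and 0.804%. The ratio of Fos to Fosl2 was 7.39 and 10.9 in K-Ras and 4.47 and 4.34 in K-Ras Mll4-/- tumours. Within the Jun family, Jun held 34.5% to 37.0% in all samples. Junb held 47.0% and 40.9% in K-Ras and 40.3% and 37.1% in K-Ras Mll4-/- tumours, while Jund was lowest in K-Ras replicate 1 (17.5%) and highest in K-Ras Mll4-/- replicate 2 (28.4%). The ratio of Atf3 to Jund, an inducible against a constitutive partner, was 0.453 and 0.518 in K-Ras and 0.305 and 0.194 in K-Ras Mll4-/- tumours. The groups did not overlap in this ratio, nor did they for Atf3 alone, where 28.5% of single tested genes were lower without overlap.

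**Figure D3:**
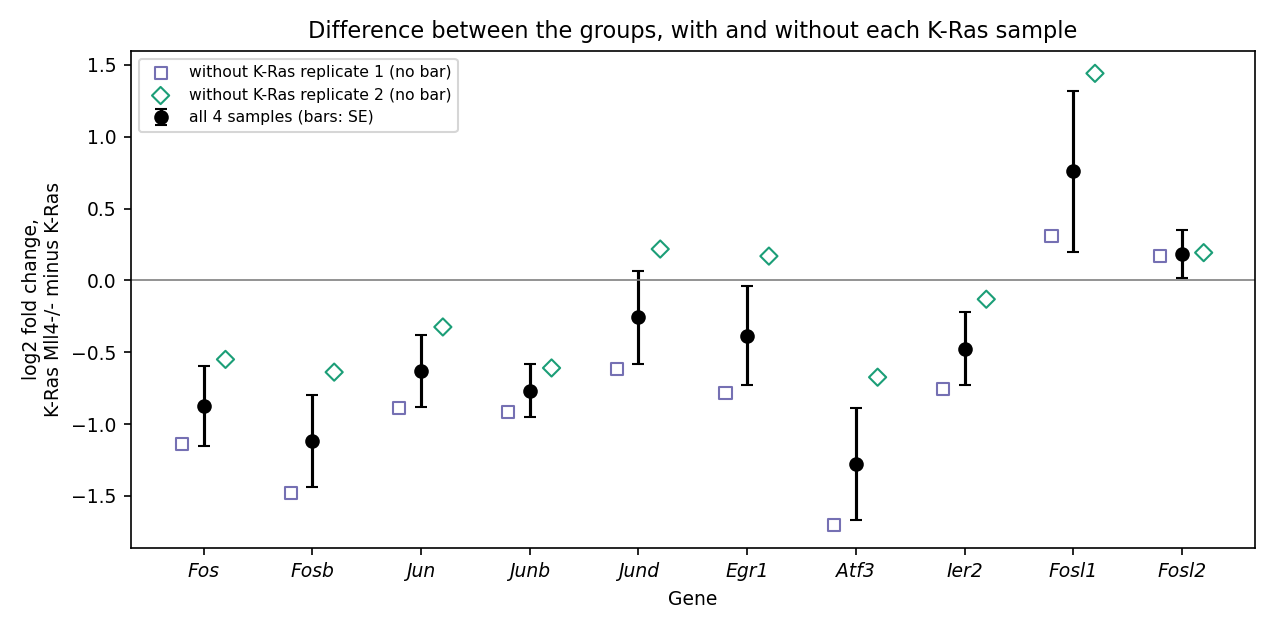
Log2 fold change of each gene, K-Ras Mll4-/- minus K-Ras, from all 4 samples (black, bars are the SE) and after leaving out K-Ras replicate 1 (squares) or K-Ras replicate 2 (diamonds). Without K-Ras replicate 2, Jund and Egr1 lie above 0 at 0.22 and 0.17 and the other early genes stay below 0.

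The size of these differences moved with single libraries. K-Ras replicate 2 had the highest level of the 4 samples for 8 of the 8 early genes, where 29.3% of all tested genes were highest there. Without it the median log2 fold change of the early genes was -0.44, and 6 of the 8 were below 0. The sign of Jund turned to 0.22 and that of Egr1 to 0.17, and Ier2 was at -0.13. Fos was then at -0.55, Fosb at -0.64, Junb at -0.61, Atf3 at -0.67 and Jun at -0.32. Without K-Ras replicate 1 the median was -0.90, all 8 were below 0, and the edgeR quasi-likelihood test called Fosb (log2 fold change -1.48, adjusted p = 0.0393) and Atf3 (-1.70, adjusted p = 0.0445), where 2.54% of all tested genes were called lower. In each of these fits the lone sample of a group is assumed to vary like the other group.

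Marker sums of other cell types also differed between samples, but not all in the pattern of the early genes. The ciliated sum was 143 and 805 CPM in K-Ras and 82.2 and 85.6 CPM in K-Ras Mll4-/- tumours, and 8 of 8 of its markers were lower in both K-Ras Mll4-/- samples, as were 28.5% of all tested genes. The club sum was 1177 and 4801 CPM against 1004 and 748 CPM, with Scgb1a1, the club cell secretory protein, at 576 and 2995 against 566 and 439 CPM. The endothelial sum was 8271 and 7808 CPM in K-Ras and 5147 and 4034 CPM in K-Ras Mll4-/- tumours, and 8 of 10 of its markers were lower in both K-Ras Mll4-/- samples, Pecam1 among them at 1360 and 1332 against 944 and 744 CPM. The fibroblast sum was 2580 and 1234 CPM against 902 and 931 CPM, with 8 of 10 markers lower in both K-Ras Mll4-/- samples and Col1a1 at 491 and 180.1 against 147 and 159 CPM. The leukocyte sum did not separate the groups, at 771 and 346 CPM against 796 and 474 CPM, and Ptprc, the CD45 gene, was at 274 and 143 against 269 and 171 CPM. Of 7 neutrophil markers tested, 4 were lower in both K-Ras Mll4-/- samples. The other 3 had log2 fold changes above 0, and 1 of them was higher in both K-Ras Mll4-/- samples. The median log2 fold change of the 7 was -1.41, with sums of 230.3 and 72.9 against 75.4 and 78.7 CPM. The mesothelial sum went the other way, at 99.8 and 208 CPM in K-Ras and 494 and 833 CPM in K-Ras Mll4-/- tumours. That sum was mostly Krt19, which airway epithelium also expresses, and Msln, both named after their values were seen. Of 6 mesothelial markers listed, 4 passed the filter, and besides these 2 the other 2 had log2 fold changes below 0. None of the markers of these 7 lists was at 0 in all samples. Their part in the levels of the early genes was not tested.

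**Figure D4:**
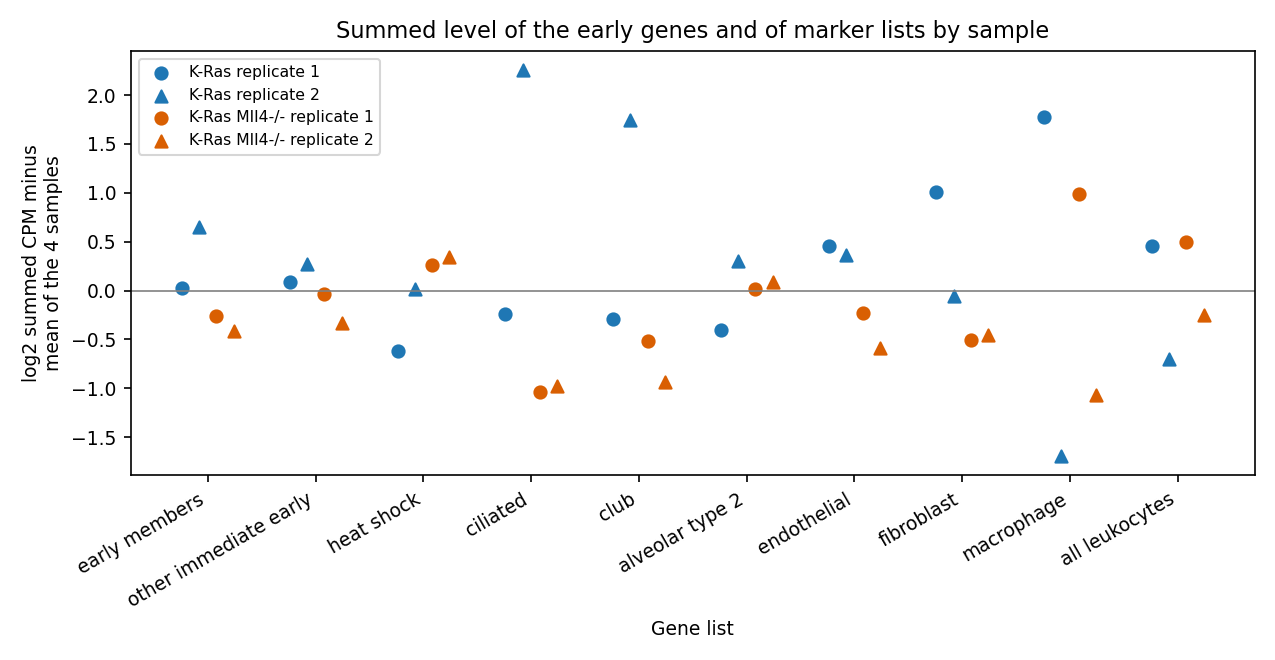
Summed CPM of the 8 early genes and of other gene and marker lists in each sample, as the log2 difference from the mean of the 4 samples. K-Ras replicate 2 (blue triangle) is the highest sample for the early genes, at 2529 CPM, and for the ciliated and club lists, at 805 and 4801 CPM. It is also highest for the alveolar type 2 and the other immediate early lists, at 30743.5 and 5061.82 CPM.

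Other immediate early genes were examined as a list of 36, of which 35 were tested. None was called by the edgeR quasi-likelihood test; at an unadjusted p under 0.05, 11 were lower and 3 higher, where 10.4% and 11.4% of all tested genes were, and DESeq2 called 8 lower and 2 higher (5.18% and 5.23% over all genes). The median log2 fold change was -0.53 (25 below 0 and 10 above), and it was -0.37 without K-Ras replicate 2. Csrnp1, a nuclear protein gene induced with AP-1, was at 35.7 and 87.7 CPM in K-Ras and at 29.5 and 17.3 CPM in K-Ras Mll4-/- tumours (log2 fold change -1.40, SE 0.52). Nfkbia and Nfkbiz, genes of the NF-kB response, differed more evenly. Nfkbia was at 237 and 256 against 128 and 93.5 CPM, and Nfkbiz at 138 and 108 against 58.5 and 43.0 CPM. Their log2 fold changes were -1.16 (SE 0.20) and -1.28 (SE 0.22), each with an edgeR adjusted p of 0.147. In both genes the replicates of a group were closer to each other than to the other group. Ctgf, a matricellular protein gene responsive to YAP and serum response factor, went the other way, at 82.2 and 119 CPM in K-Ras and 298 and 150.4 CPM in K-Ras Mll4-/- tumours (log2 fold change 1.15, SE 0.40). The other genes higher at an unadjusted p under 0.05, named after their values were seen, were Myc, at 33.4 and 34.4 against 63.8 and 66.1 CPM, and Trib1, at 48.6 and 69.5 against 86.6 and 90.7 CPM.

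Heat shock genes, whose transcripts are also known to accumulate during enzymatic digestion, had no common direction between the groups as a list. K-Ras replicate 2 was the highest sample for 8 of the 14 tested, where 29.3% of all tested genes were highest there. Of 14 tested, 7 were below 0 and 7 above, and at an unadjusted p under 0.05, 1 was lower and 4 higher (10.4% and 11.4% over all genes). The edgeR quasi-likelihood test called 0 and DESeq2 called 3, all higher (5.23% over all genes). The median log2 fold change of 0.13 turned to -0.35 without K-Ras replicate 1 and was 0.69 without K-Ras replicate 2. Hspa1b, the strongly inducible HSP70 gene, was at 50.5 and 254 CPM in K-Ras and at 102 and 68.8 CPM in K-Ras Mll4-/- tumours. K-Ras replicate 2 was thus its highest sample, as for the early genes, and K-Ras replicate 1 its lowest. Hspa1b is nearly identical to Hspa1a, so reads that aligned to both were not counted. Hspd1 and Hspe1, which encode the mitochondrial chaperonin pair, and Hsp90ab1, the constitutive HSP90 gene, were higher in both K-Ras Mll4-/- samples, with log2 fold changes of 0.89 (SE 0.14), 0.74 (SE 0.13) and 0.88 (SE 0.22). Hspd1 was at 90.8 and 102 CPM in K-Ras and at 170.5 and 187 CPM in K-Ras Mll4-/- tumours.

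**Figure D5:**
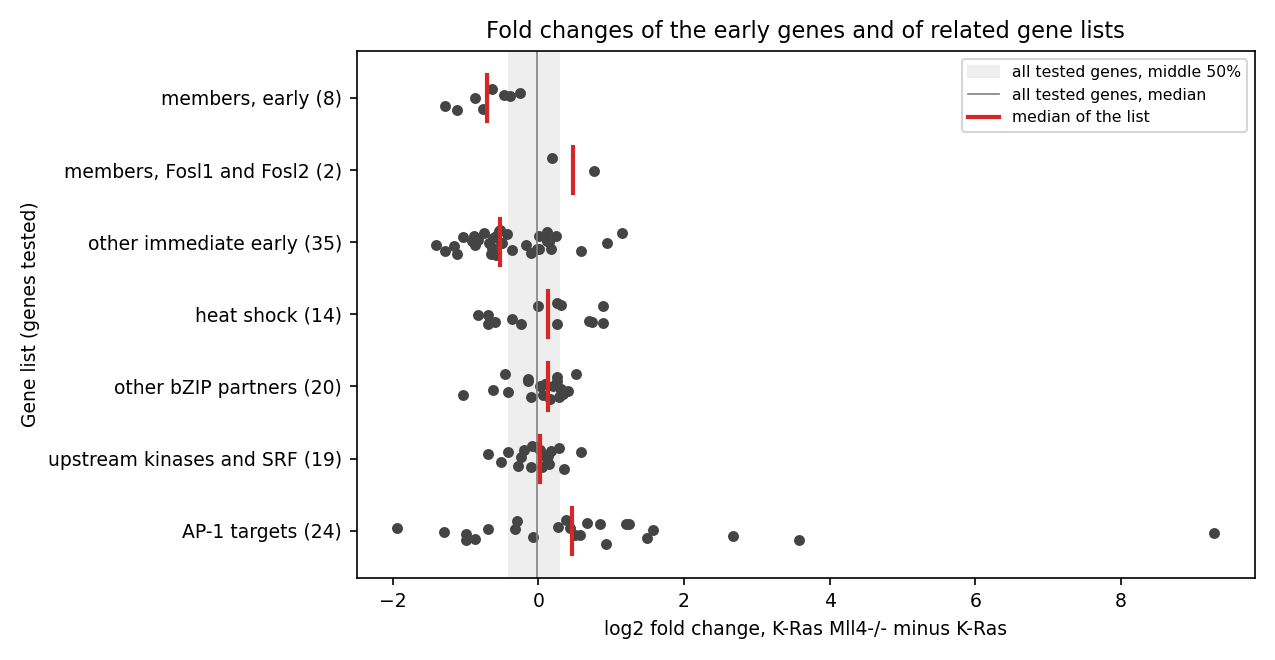
Log2 fold changes, K-Ras Mll4-/- minus K-Ras, of the early members, of Fosl1 and Fosl2 and of 5 related lists; each point is a gene with random vertical spread, red bars are list medians, and the grey band holds the middle 50% of all tested genes. The early members and the other immediate early genes have medians of -0.70 and -0.53, while the upstream kinases centre on 0.02.

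Genes acting upstream of AP-1 showed no common direction. Among 19 kinases of the ERK, JNK and p38 cascades and serum response factor cofactors, 9 were below 0 and 10 above, with a median log2 fold change of 0.02 and a range from -0.69 to 0.59, and 0 were called by the edgeR quasi-likelihood test (DESeq2 called 1, lower). At an unadjusted p under 0.05, 2 were lower and 2 higher, near the 10.4% and 11.4% over all genes. The sign of this median turned with total-count or upper-quartile scaling and with any sample but K-Ras replicate 1 left out. Rps6ka2, an RSK kinase gene, had the lowest value at -0.69 (SE 0.21), followed by Mkl2, a serum response factor coactivator, at -0.52 (SE 0.14), and Elk3, an ETS cofactor, at -0.42 (SE 0.25). Map2k4, a kinase upstream of JNK, had the highest at 0.59 (SE 0.16). Among 20 other basic leucine zipper genes the median was 0.13, 0 were called by the edgeR quasi-likelihood test or by DESeq2, and 2 were lower and 0 higher at an unadjusted p under 0.05 (10.4% and 11.4% over all genes). Jdp2, a repressor that pairs with Jun, was at 24.3 and 30.9 against 20.6 and 15.4 CPM, with a log2 fold change of -0.62 (SE 0.23). Creb5 and Batf3 had log2 fold changes of 0.52 (SE 0.28) and -0.46 (SE 0.70).

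Genes with known AP-1 regulation did not share the direction of the early genes. Of 24 tested, 15 were above 0 and 9 below, the median log2 fold change was 0.47, and at an unadjusted p under 0.05, 9 were higher and 1 lower (11.4% and 10.4% over all genes). The edgeR quasi-likelihood test called 0, and DESeq2 called 8 higher and 1 lower (5.23% and 5.18% over all genes). Blocking on the replicate number, 4 were called, all higher (1.24% over all genes). With the GC and length offsets added, 7 were called, all higher, where 356 of all 16001 tested genes were called higher. Ereg, the gene of the EGFR ligand epiregulin, was at 13.4 and 38.3 CPM in K-Ras and at 129 and 201 CPM in K-Ras Mll4-/- tumours (log2 fold change 2.67, SE 0.58, edgeR adjusted p = 0.157). Ivl, which encodes involucrin of the squamous cell envelope, was at 5.17 and 2.99 against 68.3 and 28.7 CPM (log2 fold change 3.58, SE 0.56). Krt14, a basal keratin gene, had 0 and 2 reads in the K-Ras samples and was at 7.05 and 34.7 CPM in the K-Ras Mll4-/- samples. Il6, an inflammatory cytokine gene, was the lowest of the list, at 4.25 and 4.46 CPM in K-Ras and 1.03 and 1.24 CPM in K-Ras Mll4-/- tumours (log2 fold change -1.93, SE 0.32). The groups did not overlap in these 4 genes, which were named for the largest absolute log2 fold changes of the list. Over the 24 tested, 11 were higher in both K-Ras Mll4-/- samples and 3 lower, where 29.9% and 28.5% of all tested genes were. Over the 5 lists, the edgeR likelihood ratio test called 7 lower and 1 higher of the other immediate early genes, 3 heat shock genes higher, 8 higher and 1 lower of the AP-1 regulated genes, and 0 of the basic leucine zipper and upstream genes, while limma-voom called 0 in each. Over all tested genes the likelihood ratio test called 4.54% lower and 4.85% higher.

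The members were also described by their structure. Jun, Junb, Jund and Ier2, 4 of the 10 genes, had a single exon, as had 4.74% of tested genes. Their GC content in the transcript ranged from 51.9% for Fos to 67.1% for Jund, all above the median of 50.17% over tested genes. The AU-rich nonamer TTATTTATT, searched on the transcript strand, was found in Fos and Fosl2, and in 4.23% and 14.88% of tested transcripts within 20% of their lengths. In the GENCODE M21 annotation Jun overlaps an antisense gene, Junb overlaps Prdx2, Jund an antisense gene, Atf3 a small RNA gene and Fosl1 overlaps Ccdc85b, each on the opposite strand. The strand setting of the counting is not given in the sources used here, so reads from those overlaps cannot be assigned with certainty, while Fos, Fosb, Egr1, Ier2 and Fosl2 have no such overlap.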

How the data were processed

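Raw read counts per gene symbol were deposited by the authors, 1 table per sample. The submitters' processing notes name CASAVA 1.4, STAR, HTSeq and the mouse build mm9, and the annotation and strand setting are not given in the sources used here. Reads with more than 1 alignment, 31.5% to 36.7% of the tallied reads, and reads outside genes were tallied apart and not used. Groups and replicate numbers come from the sample titles.

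Counts were fitted over all 4 samples with edgeR 4.0.16 in R 4.3.3 (default low-count filter, TMM scaling, robust quasi-likelihood test, Benjamini-Hochberg adjustment over 16001 genes, called at an adjusted p under 0.05). The SE of a log2 fold change was taken from its F statistic (absolute log2 fold change over the root of F). CPM is TMM-normalised, and log2 CPM per sample uses a prior count of 0.5. A floor of 3 reads is 0.0830 to 0.114 CPM, for counting error only. The fit was also run on simulated counts, and the outcome of that run is not reported here.

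Alternatives were other scalings and filters, DESeq2 1.42.0, limma-voom (limma 3.58.1), the likelihood ratio test, a non-robust fit, the replicate number as a block, offsets for GC content and length (mgcv 1.9.3, available for 99.1% of tested genes), and leaving out each sample. The members and gene lists were chosen with earlier results of these data known. Named genes were the 10 members, Kmt2d, Ptprc, 5 cell type markers, and in each other list the called genes and the 4 with the largest absolute log2 fold change. Of these, 1 gene is not reported here. No genes were named for likeness of pattern, since 4 samples are too few for a correlation.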

Additional observations from a re-analysis of the deposited data

How the results depend on the processing

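Over other scalings, filters, tools, offsets and samples left out, Fos, Fosb, Jun, Junb, Atf3 and Ier2 kept a negative and Fosl1 and Fosl2 a positive log2 fold change. Jund turned to 0.10 with the GC and length offsets, 0.11 with the replicate block and those offsets together, and ranged from -0.62 to 0.22 as single samples were left out; Egr1 ranged from -0.78 to 0.17. The edgeR quasi-likelihood test called 6 genes, and it called 44 with genes of any read kept, 217 with the replicate block and 424 with the replicate block and the offsets, while DESeq2 called 1601, the likelihood ratio test 1503 and limma-voom 0; with single samples left out the count ran from 0 to 528. Members called numbered 4 with DESeq2, 3 with the likelihood ratio test, 0 to 2 with single samples left out, and 0 in the other settings run. The cause of these differences was not tested. The same replicate numbers occur in both groups, but the labels do not say that they pair samples. Deviations of same-numbered samples correlated at 0.20 across genes. The block called none of the members, but 4 of the AP-1 regulated genes (7 with the offsets). It also called 1 of the other immediate early genes (3 with the offsets), where it called 217 of all 16001 tested genes (424 with the offsets). With single samples left out, the median log2 fold change of the early genes ran from -0.90 to -0.44, the Fosl2 difference from the early genes from 0.51 to 1.21, and the medians of Fosl1 and Fosl2 from 0.24 to 0.82, of AP-1 regulated genes from 0.41 to 0.74, of heat shock genes from -0.35 to 0.69 and of upstream kinases from -0.046 to 0.063. The last was -0.036 with upper-quartile and -0.032 with total-count scaling. Depth limits only Fosl1 among the members, with 19 to 68 reads per sample.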
